A study of Mus musculus with 48 samples.

Results

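Trem2 and Tyrobp encode the parts of a receptor complex of microglia, the resident immune cells of the brain. They were picked by gene symbol, which matched 2 of the 48709 genes counted in RNA of 46 mice in 8 groups, and they were chosen with their levels across these groups already known. The fold changes of both genes are therefore given as a description, with their standard errors and without a test.

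TREM2 is a cell-surface receptor that binds lipids, lipoproteins and amyloid-beta. Its short intracellular part cannot signal alone, and TREM2 couples in the membrane to TYROBP (also called DAP12), a small adaptor whose intracellular ITAM motif is phosphorylated by Src-family kinases and then recruits the kinase SYK. Several other receptors of myeloid cells signal through the same adaptor. In the brain both genes are transcribed mainly in microglia, and loss of either gene in humans causes a dementia with bone cysts, whereas rare coding variants of TREM2 raise the risk for Alzheimer's disease. In mice with amyloid plaques, microglia at the plaques need the receptor to take on their full activated state.

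All mice were C57BL/6J, and according to the methods of the study they were male. In the Fmn2 experiment the groups were 5 Fmn2+/+ and 5 Fmn2-/- mice of 3 months and 3 Fmn2+/+ and 5 Fmn2-/- mice of 8 months, and the knockout was constitutive. In the cross, 7 mice labelled FMN2-/-_APP and 9 mice labelled FMN2 +/+ APP, all of 3 months, carried transgenes with mutant human APP, driven by the neuronal Thy1 promoter. In a separate experiment 6 APP mice and 6 wild-type mice of 4 months were compared, and neither of these groups is labelled with an Fmn2 mutation. RNA was taken from whole tissue that contains all cell types, and the labels name the dentate gyrus for every sample.

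The libraries held between 6818809 and 43921030 counted reads, and the 8-month Fmn2-/- libraries, at 9175551 to 11675280, were among the shallowest. Levels are given as CPM, the reads of a gene relative to all counted reads of the library, scaled by TMM factors over all 46 mice. In the cross the Fmn2 level went against the labels: it was 19.2 to 24.2 CPM in the mice labelled FMN2 +/+ APP and 84.2 to 103.7 CPM in those labelled FMN2-/-_APP, whereas Fmn2-/- mice of the Fmn2 experiment held 20.9 to 28.1 CPM and Fmn2+/+ mice 75.5 to 113 CPM. Directions between the cross groups therefore refer to the labels only. Thy1, which can collect reads of the transgene, was at most 920 CPM in the 24 mice labelled without APP, and at or below this level also in 3 cross mice, namely labelled FMN2-/-_APP replicates 1 and 7 (785 and 865 CPM) and labelled FMN2 +/+ APP replicate 4 (814 CPM). The tissue label of the 4-month mice also went against the data, since the summed level of 5 markers of dentate granule cells was 14.4 to 22.9 CPM in these 12 mice and 429 to 858 CPM in all others, whereas 5 markers of cortical neurons summed to 421 to 479 CPM against 78.9 to 224 CPM. The titles of these samples hold the letters PFC. Choroid plexus markers summed to over 1000 CPM in 3 libraries (3-month Fmn2-/- replicate 4 and labelled FMN2 +/+ APP replicates 4 and 5).

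Trem2 (ENSMUSG00000023992) lies on the plus strand of chromosome 17 of mm10 from 48346401 to 48354147, within a cluster of Trem genes: Trem1, Trem3, Treml4 and Treml2 precede it and Treml1 follows it. Tyrobp (ENSMUSG00000030579) lies on the plus strand of chromosome 7 from 30413760 to 30417585. The end of Tyrobp is separated by 126 bases from the end of Hcst (DAP10), an adaptor gene on the minus strand that recruits PI3 kinase. The libraries do not mark the strand, so reads that run past the end of either gene cannot be assigned by strand. The stretch of 250 bases before the Trem2 start (RefSeq, GRCm38.p6, chr17:48346151-48346400, plus strand) is shown because Trem2 and Tyrobp varied together and microglial genes are known targets of PU.1, the product of Spi1. Capitals mark the PU.1 core GAGGAA on the opposite strand, which reads TTCCTC here.
Trem2 promoter: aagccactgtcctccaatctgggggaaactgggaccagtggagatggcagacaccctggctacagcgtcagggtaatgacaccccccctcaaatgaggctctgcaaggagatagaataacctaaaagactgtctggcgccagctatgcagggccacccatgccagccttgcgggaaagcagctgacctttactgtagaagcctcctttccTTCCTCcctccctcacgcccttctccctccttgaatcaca
GAGGAA occurred once in this window, read on both strands, and the first letter of TTCCTC lay 40 bases before the start. Of 27025 genes with a promoter sequence, 25.9% hold these letters on either strand within the same length, so a match is common and says nothing about binding.

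In every group both genes were measured with at least 62 reads per mouse. In 3-month-old Fmn2+/+ mice Trem2 was 7.86, 9.54, 8.95, 9.58 and 7.87 CPM in replicates 1 to 5. Tyrobp in the same mice was 7.28, 9.16, 9.01, 9.05 and 9.30 CPM. Thus both genes had nearly the same number of reads, and because the longest transcript of Tyrobp (564 bases) is shorter than that of Trem2 (1088 bases), Tyrobp was the more abundant transcript per length, at 15.5 ± 1.48 RPKM (SD, n = 5, CPM per kilobase of transcript) against 8.05 ± 0.786 RPKM for Trem2.

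The order of the group means was similar for both genes. Trem2 was lowest in 3-month Fmn2+/+ mice (8.76 ± 0.855 CPM, SD, n = 5), followed by 8-month Fmn2-/- (10.4 ± 0.626, n = 5), 3-month Fmn2-/- (10.6 ± 1.47, n = 5), 8-month Fmn2+/+ (10.7 ± 1.68, n = 3) and 4-month wild-type mice (13.5 ± 1.60, n = 6). The cross groups came next, with 16.0 ± 5.43 CPM (n = 7) in mice labelled FMN2-/-_APP and 18.8 ± 5.94 CPM (n = 9) in mice labelled FMN2 +/+ APP, and the 4-month APP mice were highest at 52.6 ± 7.70 CPM (n = 6). Along this order only the last step separated neighbouring groups without overlap, and the groups between ranks 2 and 4, as well as those between ranks 5 and 7, differed from their neighbours by less than the larger SD. Tyrobp was 8.76 ± 0.837 CPM (n = 5) in 3-month Fmn2+/+ mice, 10.3 ± 0.587 (n = 6) in 4-month wild-type, 11.8 ± 1.08 (n = 5) in 8-month Fmn2-/-, 11.99 ± 1.45 (n = 5) in 3-month Fmn2-/- and 12.7 ± 0.838 CPM (n = 3) in 8-month Fmn2+/+ mice. It was 20.0 ± 8.82 CPM (n = 7) and 25.97 ± 7.72 CPM (n = 9) in the cross groups labelled FMN2-/-_APP and FMN2 +/+ APP, and 50.4 ± 7.54 CPM (n = 6) in 4-month APP mice. Neighbours overlapped except at the first and the last step of this order. Comparisons between the 4-month mice and the others are also comparisons between experiments and, by the neuronal markers, between tissues.

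**Figure D1:**
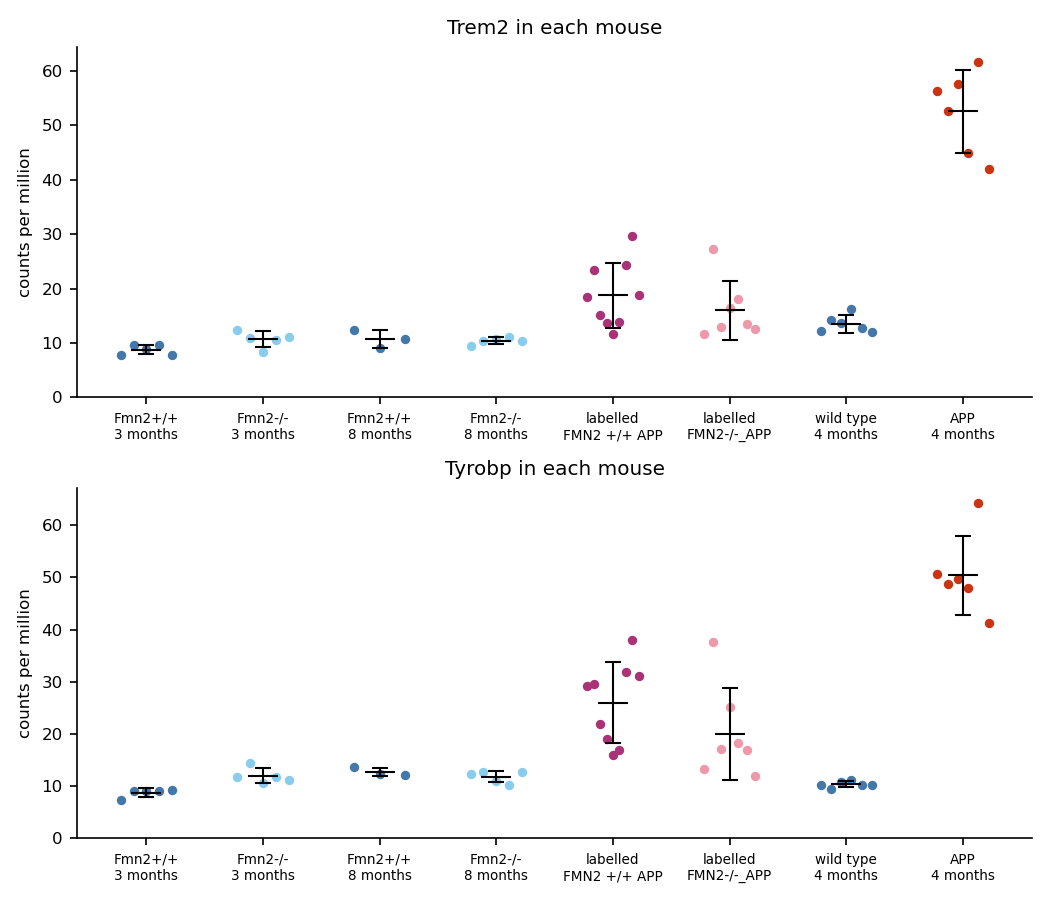
Trem2 (top) and Tyrobp (bottom) in CPM (y axis) in each of 46 mice (points), by group (x axis), with the mean and SD in black. The 6 APP mice of 4 months lie between 41.9 and 61.7 CPM for Trem2 and between 41.3 and 64.3 CPM for Tyrobp, above every other mouse.

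The largest difference of both genes was between APP and wild-type mice of 4 months, the comparison that addresses the response to amyloid. Trem2 ranged from 11.9 to 16.2 CPM (median 13.2) in the 6 wild-type mice and from 41.9 to 61.7 CPM (median 54.6) in the 6 APP mice. Tyrobp ranged from 9.48 to 11.1 CPM (median 10.2) in wild-type and from 41.3 to 64.3 CPM (median 49.2) in APP mice. The groups did not overlap for either gene, which was the case, with the APP group higher, for 2.61% of the 16733 genes tested. The fitted log2 fold change was 1.96 for Trem2 (SE 0.099) and 2.29 for Tyrobp (SE 0.089), and these values ranked 44 and 26 from the highest among 16691 genes with a symbol. In whole tissue, more microglia and more transcript per microglial cell cannot be told apart. The summed level of 10 microglial markers, of which all had reads, was 329 to 351 CPM in wild-type and 535 to 682 CPM in APP mice, a ratio of means of 1.84, whereas the ratio was 3.89 for Trem2 and 4.88 for Tyrobp. Markers of border macrophages (6.40 to 9.56 CPM in wild-type, 8.10 to 10.2 CPM in APP mice) and of monocytes and neutrophils (0.296 to 1.83 CPM and 0.540 to 1.10 CPM) overlapped between the groups. All wild-type libraries were sequenced on lane 5 and all APP libraries on lane 7, so lane and genotype cannot be told apart here.

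The other genes of the pathway were described with 12 lists of 110 genes, of which 109 were found. In APP mice of 4 months 47 of the 87 tested pathway genes passed the threshold (adjusted p under 0.05 in edgeR's quasi-likelihood test, absolute log2 fold change of at least 0.5), all with higher levels, compared with 2.34% of all genes tested. The median log2 fold change over all genes was -0.000415.

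Among the relatives of Trem2, Treml2, a receptor of the same gene cluster that lacks the coupling to TYROBP, rose from 0.470 ± 0.070 to 1.69 ± 0.407 CPM (SD, n = 6 each), a log2 fold change of 1.83 (SE 0.21, edgeR adjusted p = 1.86e-05). Trem1, Trem3, Treml1 and Treml4 were too weakly expressed to be tested, with 7, 46, 136 and 64 reads in all 46 mice together. Of the other receptors that couple to TYROBP 3 of 4 tested genes rose, namely Cd300c2 (log2 fold change 1.09), Clec5a (1.09) and Siglech (0.79), a microglial lectin, whereas Cd200r4 did not pass (0.65, adjusted p = 0.53). Of the receptors that share TYROBP with the complex or act beside it, Itgb2 and Itgam, the chains of complement receptor CR3, rose (1.63 and 0.77), as did Csf1r, the growth factor receptor of microglia (0.75), whereas Plxna1 was -0.04. The adaptor Fcer1g, which carries an ITAM like Tyrobp and serves Fc receptors, rose by 1.27 (SE 0.087). Hcst, the neighbour of Tyrobp, was counted with 5 to 12 reads per wild-type and 10 to 21 reads per APP mouse, and its log2 fold change of 0.72 did not pass (adjusted p = 0.20).

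Of 5 tested ligand genes App passed (0.61). The transgenes carry human APP, and its reads were not separated from those of the mouse gene. Apoe, a lipoprotein ligand of TREM2, was 0.27 (SE 0.057, adjusted p = 0.0078), below the fold threshold, and Clu was 0.08. Adam10 and Adam17, which encode the sheddases of TREM2, were 0.04 and 0.14, and neither passed.

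Downstream of the complex, 14 of 26 kinase and effector genes rose (median log2 fold change of the 26 genes 0.53). The largest values belonged to the Src-family kinase Fgr (2.35), the PI3 kinase subunit Pik3cg (1.08) and the adaptor Lat2 (1.03). Plcg2, the phospholipase that acts below TREM2 in microglia, rose by 0.80 (SE 0.14), and the Src-family kinase Lyn by 0.64. Syk itself was 6.06 ± 0.929 CPM in wild-type and 6.97 ± 0.704 CPM in APP mice (0.20, SE 0.11, adjusted p = 0.40). Of 9 inhibitors 3 rose, the phosphatases Ptpn6 (1.31) and Inpp5d (0.63) and the sialic acid receptor Cd33 (0.66), whereas Dok3 was -0.45 (adjusted p = 0.10). Of 7 transcription factors of microglia 4 rose: Irf8 (1.45), Runx1 (1.31), Spi1, which encodes PU.1 (1.01), and Cebpa (0.80). The Ms4a genes, a family linked to soluble TREM2 with closely related copies that can share reads, had 2 tested members, Ms4a6d (0.71, adjusted p = 0.079) and Ms4a6b (0.35, adjusted p = 0.43).

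The largest values of the lists lay among the genes that activated microglia are known to induce through TREM2. Cst7, a cysteine protease inhibitor, was 0 to 0.258 CPM in wild-type mice and 29.4 to 40.2 CPM in APP mice. Clec7a, a receptor for beta-glucans, was 0 to 0.258 and 9.22 to 14.4 CPM, and Itgax, an integrin chain, was 0.175 to 0.592 and 9.75 to 13.4 CPM. In this list 8 of 11 tested genes rose (median log2 fold change 0.79), and Axl (0.47), Gpnmb (0.35) and Ank (0.02) did not pass. Of 11 genes of resting microglia 9 rose too (median 0.79), led by Fcrls (1.22) and Olfml3 (1.18). Tmem119 (0.45) and Sall1 (0.38) stayed below the fold threshold. Thus the fold changes of both Trem2 and Tyrobp lay above those of all 11 resting genes and below those of Cst7, Clec7a, Itgax and Ccl6 (3.37). The other genes of the list induced through TREM2, Lpl (0.79) among them, lay below both members.

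**Figure D2:**
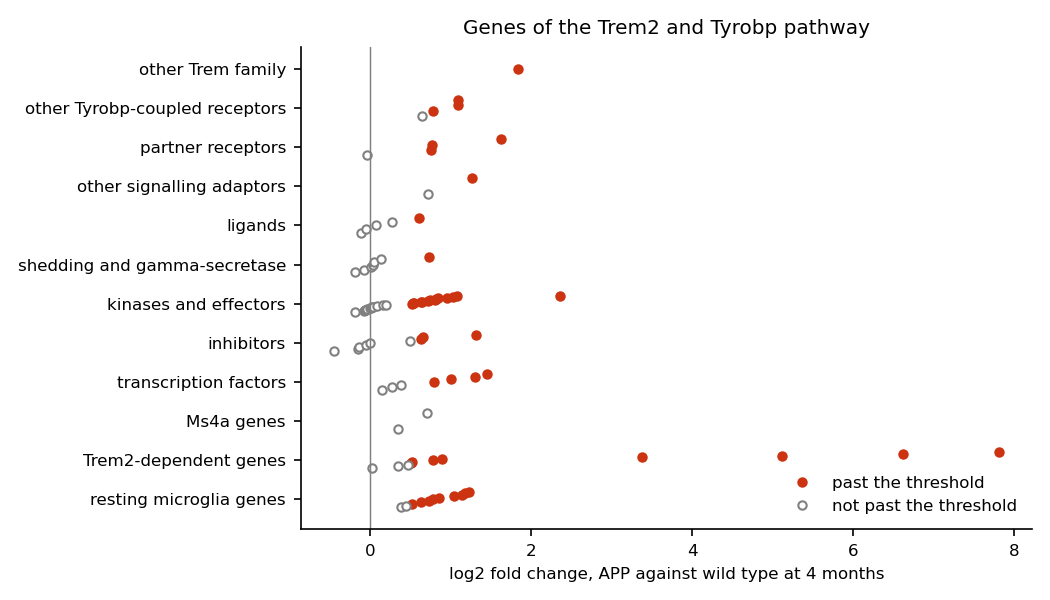
Log2 fold changes between APP and wild-type mice of 4 months (x axis) for the tested genes of 12 pathway lists (y axis). Filled points passed the threshold (47 of 87 genes, all higher in APP mice) and open points did not.

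As a measure that takes the microglial genes into account, each member was expressed as a percentage of the summed level of the 11 resting microglia genes in the same mouse. Trem2 ranged from 4.21 to 5.22% (median 4.57%) in 4-month wild-type and from 9.10 to 11.3% (median 9.85%) in APP mice. Tyrobp ranged from 3.32 to 3.67% (median 3.59%) and from 8.46 to 10.9% (median 9.49%). Neither measure overlapped between the groups, and the share of all genes that separate them on this scale was not counted. Tyrobp was higher relative to Trem2 in APP mice: the ratio of Tyrobp to Trem2 per length was 1.28 to 1.64 (median 1.54) in wild-type and 1.66 to 2.06 (median 1.84) in APP mice, without overlap, although the closest mice differed by little (1.64 and 1.66). In 3-month Fmn2+/+ mice this ratio was 1.79 to 2.28, and in the cross mice labelled FMN2 +/+ APP 2.35 to 3.19. As a percentage of the resting genes, Tyrobp reached 10.5% in cross mice labelled FMN2 +/+ APP and 9.22% in those labelled FMN2-/-_APP. These values lie within the range of the 4-month APP mice, whereas Trem2 in the same groups reached 7.68 and 6.67%, below that range.

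**Figure D3:**
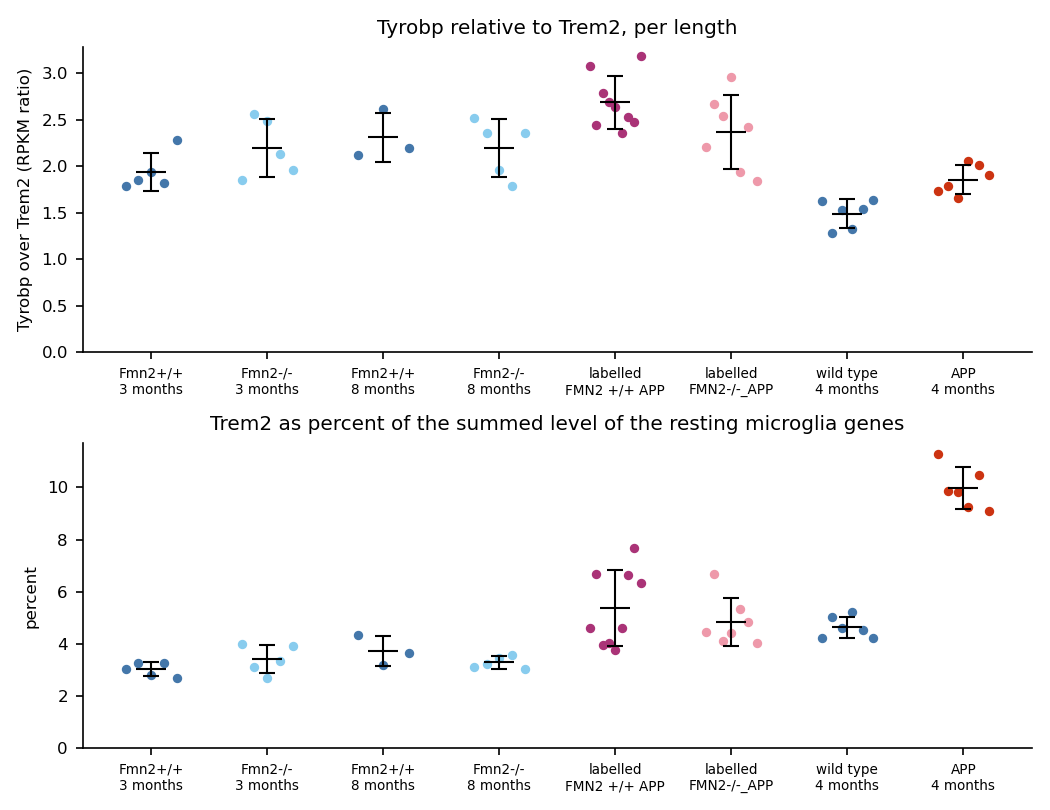
Ratio of Tyrobp to Trem2 in RPKM (top) and Trem2 as a percentage of the summed level of 11 resting microglia genes (bottom) in each mouse (points), with mean and SD in black. The APP mice of 4 months lie above their wild-type controls in both panels, and their Trem2 percentage (9.10 to 11.3%) lies above that of every other mouse.

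The cross addresses the combination of Fmn2 loss with amyloid. In the mice labelled FMN2 +/+ APP, Trem2 ranged from 11.7 to 29.6 CPM (median 18.4), and in those labelled FMN2-/-_APP from 11.6 to 27.2 CPM (median 13.5). Tyrobp ranged from 15.9 to 38.0 CPM (median 29.3) and from 11.98 to 37.6 CPM (median 17.1). The groups overlapped over nearly their whole range for both genes. The log2 fold change of the label FMN2-/-_APP against FMN2 +/+ APP was -0.23 for Trem2 (SE 0.21) and -0.38 for Tyrobp (SE 0.23). Within lane 5 (3 mice each) the differences in mean log2 CPM were -0.18 and -0.32, and within lane 6 (3 mice each) 0.20 and -0.033, so that the Trem2 difference had opposite signs on these lanes. Between the mice run on lanes 4 and 7 together (1 mouse each) the differences were -0.85 and -0.92. Without the 3 cross mice whose Thy1 level was in the range of mice without the transgene, the fold changes were -0.18 and -0.31.

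On the log2 scale the spread among the cross mice was wider than in other groups, with an SD of log2 CPM of 0.45 (labelled FMN2 +/+ APP) and 0.43 (labelled FMN2-/-_APP) for Trem2, compared with 0.088 to 0.22 in the other groups of at least 5 mice. For Tyrobp the SD was 0.45 and 0.56, compared with 0.082 to 0.21. The 3 cross mice with a Thy1 level in the range of mice without the transgene had 11.6, 13.5 and 11.7 CPM of Trem2 (labelled FMN2-/-_APP replicates 1 and 7 and labelled FMN2 +/+ APP replicate 4) and 13.2, 16.9 and 15.9 CPM of Tyrobp. The mouse with the highest Trem2 in the cross, labelled FMN2 +/+ APP replicate 8 (29.6 CPM), had 1473 CPM of Thy1, and labelled FMN2-/-_APP replicate 2 (27.2 CPM) had 1600 CPM. The mouse with the highest Thy1, labelled FMN2 +/+ APP replicate 9 (1894 CPM), had 18.8 CPM of Trem2 and 31.02 CPM of Tyrobp. Labelled FMN2-/-_APP replicate 4 had 1689 CPM of Thy1 and 16.4 CPM of Trem2, and replicate 6 of the same group 950 and 18.2 CPM. The part of the transgene in the spread was not tested.

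**Figure D4:**
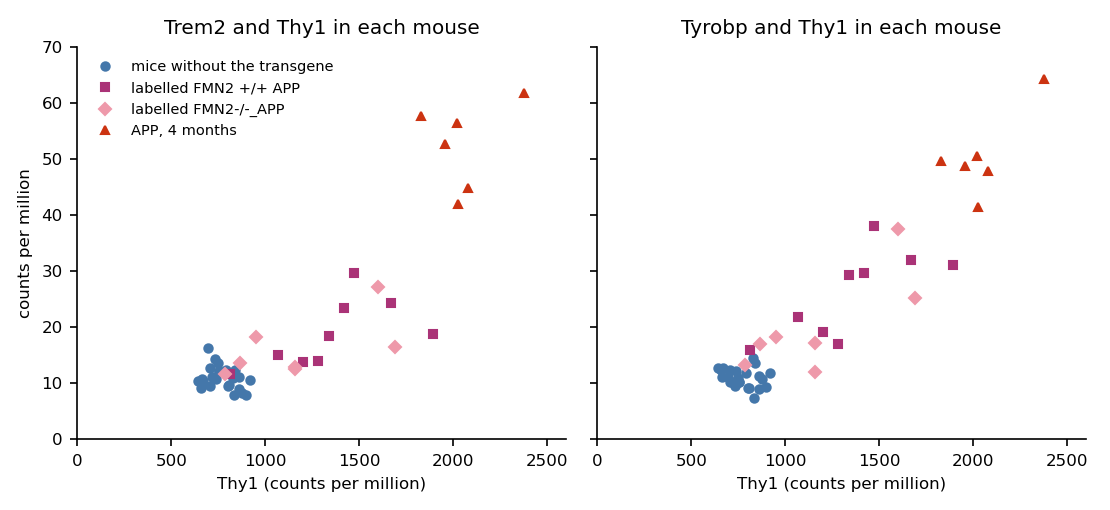
Trem2 (left) and Tyrobp (right) against Thy1, all in CPM, in each of 46 mice. The 24 mice labelled without the transgene have at most 920 CPM of Thy1, 3 cross mice lie in the same range, and the other cross mice extend from there toward the APP mice of 4 months.

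Of the 86 tested pathway genes 2 passed in the cross, both lower under the label FMN2-/-_APP, compared with 0.774% of all genes. Clec7a was 0.615 to 5.96 CPM in mice labelled FMN2 +/+ APP and 0.147 to 1.08 CPM in mice labelled FMN2-/-_APP (log2 fold change -2.68, SE 0.57, edgeR adjusted p = 0.027). Lgals3, which encodes galectin-3, a ligand of TREM2, was 1.26 to 2.61 CPM and 0.290 to 1.17 CPM (-1.07, SE 0.22, adjusted p = 0.023). The list of genes induced through TREM2 had a median log2 fold change of -0.42 in 10 tested genes, against 0.0057 over all genes. With the replicate number as a block, neither gene was called. That fit also left out labelled FMN2 +/+ APP replicates 8 and 9, whose numbers have no partner in the other group. With lane as a covariate both genes were called. Neither gene was called without the 3 cross mice with low Thy1, and 1 of them (Clec7a) was called without the libraries with choroid plexus markers.

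Compared with the 3-month mice of the Fmn2 experiment, which lack the APP transgenes, the cross mice had higher levels of both genes. Taking the mean of both Fmn2 genotypes on each side, which does not depend on which cross label is which, the log2 fold change was 0.85 for Trem2 (SE 0.15) and 1.16 for Tyrobp (SE 0.17). Trem2 of the 10 mice without APP ranged from 7.86 to 12.3 CPM, and that of the 16 cross mice from 11.6 to 29.6 CPM. Tyrobp ranged from 7.28 to 14.5 CPM and from 11.98 to 38.0 CPM. The ranges overlapped for both genes at their edges. Transgene and experiment cannot be told apart in this comparison, in which 16.5% of all genes tested passed the threshold. Of 88 tested pathway genes 22 rose, including Cst7 (4.61), Clec7a (2.40) and Ccl6 (2.37) of the genes induced through TREM2, Fcrls (2.09) and Olfml3 (0.69) of the resting genes, Itgb2 (0.58), Irf8 (0.52) and the Ms4a genes Ms4a6c (2.17) and Ms4a6b (1.47). Of the 11 resting genes 4 rose and 6 lay above 0 (median 0.25). P2ry12 (-0.49) and P2ry13 (-0.46) were lower, short of the fold threshold of 0.5. The 3 pathway genes that fell past the threshold were Plxna1 (-0.63), the lipase Lpl (-1.06) and the kinase Prkcd (-1.19). In the 4-month comparison, in which lane and genotype cannot be told apart, Lpl (0.79) and Prkcd (0.54) had risen. By the neuronal markers the 4-month tissue was a different one, and the cause of the opposite signs was not tested.

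In mice without APP the differences were small. At 3 months Trem2 was 12.3, 10.9, 8.30, 10.6 and 11.1 CPM in Fmn2-/- replicates 1, 2, 4, 5 and 6. Tyrobp was 11.8, 14.5, 10.7, 11.7 and 11.3 CPM in the same mice. All 5 Fmn2-/- mice lay above all 5 Fmn2+/+ mice for Tyrobp, as was the case for 2.62% of the 16630 genes tested, whereas for Trem2 the groups overlapped through Fmn2-/- replicate 4. The log2 fold change was 0.26 for Trem2 (SE 0.11) and 0.43 for Tyrobp (SE 0.10). The summed level of the 10 microglial markers was also higher in Fmn2-/- mice, at 325 to 381 CPM against 284 to 323 CPM, with a ratio of means of 1.12, and their part in the difference was not tested. Relative to the 11 resting microglia genes Tyrobp was 2.82 to 3.21% in Fmn2+/+ and 3.47 to 4.13% in Fmn2-/- mice. How many of all genes separate the groups on this measure was not counted. All Fmn2+/+ mice but only Fmn2-/- replicate 1 were sequenced on lane 5, where this mouse differed from the mean of the 5 Fmn2+/+ mice by 0.50 (Trem2) and 0.44 (Tyrobp) on the log2 scale. The correction for GC content and length gave fold changes of 0.15 and 0.33.

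No pathway gene passed at 3 months among 82 tested in edgeR, compared with 0.0301% of all genes. At an unadjusted p under 0.05 there were 9, compared with 10.5% of all genes, and DESeq2 called 1 (Tmem119), compared with 0.547% of all genes. The 11 resting microglia genes had a median log2 fold change of 0.090, with 9 above 0, and the 25 tested kinase and effector genes had a median of 0.037, against 0.0041 over all genes.

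At 8 months Trem2 was 12.4, 9.05 and 10.7 CPM in Fmn2+/+ replicates 1 to 3. In Fmn2-/- replicates 1 to 5 it was 9.45, 10.3, 10.8, 11.1 and 10.4 CPM. Tyrobp was 13.7, 12.3 and 12.2 CPM in Fmn2+/+ mice. In Fmn2-/- mice Tyrobp was 12.3, 12.6, 11.01, 10.3 and 12.7 CPM. The groups overlapped for both genes, and the log2 fold changes were -0.0038 for Trem2 (SE 0.11) and -0.057 for Tyrobp (SE 0.11). The values of all 8 mice rest on 62 to 506 reads of Trem2 and 84 to 557 reads of Tyrobp, and the highest numbers belong to the single deep library, Fmn2+/+ replicate 1. The correction for GC content and length moved the fold changes to 0.25 and 0.18. Replicates 2 and 3 of the Fmn2-/- group were more alike than the repeat runs of a single library in the cross (chi-square of their counts over its degrees of freedom 1.61, compared with 1.73 and 2.19 for repeat runs and 3.52 or more for the other pairs of this group). They are labelled as separate samples and were kept as 2 mice, and with both counted as 1 sample the fold changes were -0.019 and -0.071.

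No pathway gene passed at 8 months among 78 tested in edgeR, compared with 1.13% of all genes. At an unadjusted p under 0.05 there were 18, compared with 23.3% of all genes. DESeq2 called 3 (Gpr34 and Siglech among them), compared with 5% of all genes, and edgeR called 15 without Fmn2+/+ replicate 2, compared with 20.6% of all genes. The 11 resting microglia genes had a median log2 fold change of 0.25, with 10 above 0, against a median of 0.006 over all genes. The fold changes of Trem2 and Tyrobp lay below the median of the resting genes. Tyrobp relative to these genes was 3.33 to 4.07% in the 5 Fmn2-/- and 4.15 to 4.80% in the 3 Fmn2+/+ mice. How many of all genes separate these mice on this measure was not counted, and Fmn2+/+ replicates 2 and 3 held only 84 and 108 reads of Tyrobp. The percentages were not corrected for GC content and length, a correction that changed the sign of the Tyrobp fold change.

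Both genes were somewhat higher at 8 than at 3 months in Fmn2+/+ mice, where the ratio of means was 1.22 for Trem2 and 1.45 for Tyrobp. The ranges of the 5 and 3 mice overlapped for Trem2 but not for Tyrobp. How many of all genes separate these groups in the same way was not counted. In Fmn2-/- mice the ratios were 0.979 and 0.983. Over both genotypes the log2 fold change with age was 0.21 for Trem2 (SE 0.082) and 0.33 for Tyrobp (SE 0.073), and the interaction of age and genotype was -0.27 (SE 0.16) and -0.50 (SE 0.15). Under the correction for GC content and length the interaction was 0.058 for Trem2 and -0.20 for Tyrobp. Mice of 3 months were sequenced on lanes 5 and 6, and those of 8 months on lane 7 except Fmn2+/+ replicate 1 on lane 6. Without this mouse the 8-month differences between genotypes in mean log2 CPM were 0.080 (Trem2) and -0.056 (Tyrobp) within lane 7. The part of the lane in the age difference and in the interaction was not tested.

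With age 4 of 83 tested pathway genes rose (log2 threshold 0.25), compared with 6.3% of all genes: Siglech (0.27), another receptor that uses TYROBP, Gpr34 (0.36), a lysophospholipid receptor of microglia, the inhibitory adaptor Dok1 (0.69) and the gamma-secretase subunit Psenen (0.35). In the interaction 1 of 83 passed, compared with 3.73% of all genes. This was Sema6d, whose product binds the plexin partner of TREM2 (0.32, SE 0.086, edgeR adjusted p = 0.045). It was not called with 8-month Fmn2-/- replicates 2 and 3 counted as 1 sample. The call was also lost without the filter on low counts, with the correction for GC content and length and with libraries drawn down to the smallest.

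**Figure D5:**
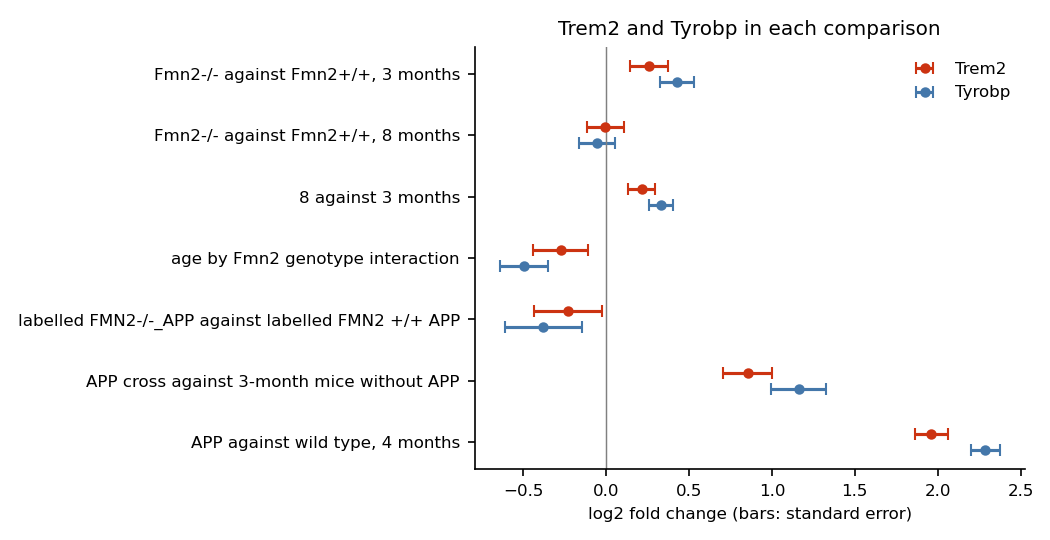
Log2 fold changes of Trem2 and Tyrobp (x axis) with standard errors (bars) in 7 comparisons (y axis). The values are 1.96 and 2.29 between APP and wild-type mice of 4 months, 0.85 and 1.16 for the cross against 3-month mice without APP, and between -0.50 and 0.43 in the 5 other comparisons.

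Among mice of the same group Trem2 and Tyrobp varied together. Pearson's r of log2 CPM, centred on the group means, was 0.84 over 46 mice (Spearman's rho 0.73), and 0.76 without the 2 mice farthest from the median of Trem2. This value rests largely on the cross: in the 16 cross mice r was 0.92, and in the 30 other mice it was 0.50. Among 14719 genes with a mean of at least 1 CPM Tyrobp was the gene most like Trem2 by this measure, followed by the lysosomal genes Cd68 (0.81) and Ctss (0.79), Plek (0.79) and Laptm5 (0.79). The genes most like Tyrobp were Ctss (0.85), Trem2, the complement gene C1qb (0.84) and, at rank 5, the Fc receptor Fcgr3 (0.80). The mice of a group share library preparation, and these values are a description only.

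By the pattern of the 8 group means, measured as the root mean square difference of centred log2 CPM, the genes closest to Trem2 were Lgals3bp (0.14), Tent5c (0.14), Itgb2 (0.16), Tbxas1 (0.16) and Gpr84 (0.17), with Tyrobp at rank 12 (0.24). The genes closest to Tyrobp were Capg (0.16), Tent5c (0.20), Ly86 (0.21), Trem2 (0.24) and Tlr2 (0.25). Capg, an actin-capping protein gene, was 1.51 ± 0.461 CPM in wild-type and 6.22 ± 1.41 CPM in APP mice of 4 months (SD, n = 6 each), and Lgals3bp was 11.8 ± 0.541 and 48.4 ± 13.4 CPM.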

How the data were processed

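RNA was isolated from whole tissue and sequenced from TruSeq v2 libraries. The authors used STAR to align reads to mm10 and HTSeq to count those that fell on each gene, and the deposited values are raw read counts per gene. The 48 libraries were used as 46 mice, since mouse 7 of each cross group had 2 runs (chi-square per degree of freedom 2.19 and 1.73), which were summed. Gene symbols and transcript lengths came from GENCODE M21.

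Counts were filtered with filterByExpr, scaled by TMM and tested with the quasi-likelihood test of edgeR 4.0.16 in R 4.3.3 (limma 3.58.1) on the mice of each comparison, with Benjamini-Hochberg adjustment over all genes tested. Genes were called when the adjusted p was under 0.05 and the log2 fold change reached 0.25 (Fmn2 and age) or 0.5 (APP) in either direction. The fit was first tested on simulated counts with 200 changed genes. CPM, RPKM and log2 CPM (prior count 0.5) were computed from the counts. Alternatives were DESeq2 1.42.0, RLE factors, no filter, leaving out each mouse, length and GC offsets (splines with 5 df), lane, a replicate block, summed libraries and drawn-down libraries.

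Trem2, Tyrobp and all gene lists were chosen with earlier results of these data known. In each list up to 3 called genes with the largest change are named; Fmn2, Thy1 and genes that did not pass are named for their role, and the latter were chosen after their values were seen. Results of some genes are not reported here. In the cross, mice of equal number (1 to 7) shared a sequencing lane, and p-values measure the spread between these mice.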

Additional observations from a re-analysis of the deposited data

Results flagged for a closer look

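Among 35 combinations of group and measure, 3 had a mouse whose distance from the nearest other mouse was large for the range of its group by Dixon's criterion at 95%, and chance gives about 1 in 20. Trem2 of labelled FMN2-/-_APP replicate 2 was 27.2 CPM, whereas the other 6 mice of that group had at most 18.2 CPM. Tyrobp of 3-month Fmn2+/+ replicate 1 was 7.28 CPM, below the 9.01 CPM of the next mouse. Tyrobp of 4-month wild-type replicate 2 was 3.32% of the summed level of the resting microglia genes, the lowest of its group.

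Sema6d was called in the interaction of age and Fmn2 genotype (0.3176 on the log2 scale, edgeR adjusted p = 0.045), as were 3.73% of all genes. The call was lost without the filter, with the length and GC correction, with drawn-down libraries and with 8-month Fmn2-/- libraries 2 and 3 summed. Mice of 3 and 8 months mostly ran on different lanes, and the part of the lane was not tested. Sema6d was 109 ± 3.65 CPM in Fmn2+/+ and 102.6 ± 6.67 CPM in Fmn2-/- mice of 3 months (SD, n = 5 each), and 82.8 ± 9.47 (n = 3) and 92.5 ± 3.55 CPM (n = 5) at 8 months.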

How the results depend on the processing

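Between APP and wild-type mice of 4 months, no alternative moved the values by more than the spread between mice, and leaving out each mouse gave 1.91 to 2.02 for Trem2, 2.21 to 2.34 for Tyrobp and 44 to 48 called pathway genes. For the cross against 3-month mice without APP these ranges were 0.77 to 0.89, 1.05 to 1.21 and 23 to 27. The Fmn2 and age comparisons depended more on the processing, and where no cause is given the cause was not tested. The share of all genes called also moved between fits, at 8 months from 1.13% in edgeR to 5% in DESeq2. It was 20.6% in edgeR without 8-month Fmn2+/+ replicate 2. Counts of pathway genes in this section are given without that share and are not a result about the pathway. At 3 months DESeq2 called 1 pathway gene, and Trem2 was 0.48 with lane as a covariate. That value rests on Fmn2-/- replicate 1, the only mouse of its group on lane 5, where all Fmn2+/+ mice were sequenced. The length and GC correction lowered the 3-month fold changes of both genes, as given above. At 8 months DESeq2 called 3, a fit without a filter on low counts called 5, leaving out each mouse gave 0 to 15, and the length and GC correction gave 0.25 for Trem2 and 0.18 for Tyrobp. With age an unfiltered table left 2 called genes. In the interaction DESeq2 called 4, and the unfiltered table, the length and GC correction, summing Fmn2-/- libraries 2 and 3 and drawing all libraries down to the smallest each left 0, with 0 to 6 on leaving out each mouse (6 without 8-month Fmn2+/+ replicate 2). The length and GC correction gave 0.058 for Trem2 and -0.20 for Tyrobp there. In the cross leaving out each mouse gave 1 to 3 called genes. After the data were seen, the cross was also tested without the 3 mice with low Thy1 (0 called genes) and without the libraries with choroid plexus markers (1 called gene).

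The correlation between mice of equal replicate number, as deviations from their group means, was -0.16 to 0.217 at 3 months, -0.044 to -0.017 at 8 months and -0.17 to 0.26 at 4 months. In the cross, where equal numbers shared a lane, it was -0.36 to 0.347 (mean 0.105, compared with -0.013 for other pairs). The replicate block used only mice whose number occurs in both groups, which were 4 pairs at 3 months, 3 at 8 months, 7 in the cross and 6 at 4 months. With the replicate block 0 pathway genes were called in the cross and 46 at 4 months, and the fold changes of Trem2 and Tyrobp were 0.23 and 0.45 at 3 months, -0.030 and -0.036 at 8 months, -0.11 and -0.28 in the cross and 1.95 and 2.27 at 4 months. Except at 4 months, the block and the loss of mice cannot be told apart in these values. Genes with few reads, such as Trem1 with 7 reads in all mice together, could not be compared at this depth.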
